A study of Drosophila melanogaster with 4 samples.

Results

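The Dpr and DIP genes of Drosophila melanogaster were taken from a nuclear RNA-seq comparison of photoreceptors in which Top3β, a topoisomerase, was targeted by RNAi. All genes whose symbol is dpr followed by a number, or begins with DIP-, were included, which gave 32 genes, 21 Dpr and 11 DIP, of the 13929 in the table of counts. The family was chosen from this same contrast because dpr21 stood out in it. The values of dpr21 are therefore given as a description, with no p-value. Its intervals use a spread estimated with other genes as well as its own libraries, and they do not allow for that choice. At Day 30, dpr21 stood at 15.7% of its siControl level in siTop3β. None of the 25 tested paralogs passed edgeR's test in either direction, beside 1.21% of all 7029 genes tested. With so low a share over all genes, nothing is read from that count. Its siControl level ranked 2 of the 32 genes per exonic kilobase, 8 per kilobase of the whole gene and 4 with no scaling to length.

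Dpr and DIP proteins are cell-surface proteins with immunoglobulin domains. A Dpr on one neuron binds a DIP on another in selective pairs, and these pairs help neurons of the visual system and the neuromuscular system to choose and keep their synaptic partners. The name Dpr comes from defective proboscis extension response, a taste behaviour altered in the first mutant of the family, and DIP stands for Dpr-interacting protein. Photoreceptors R1 to R6, the outer cells of each eye unit, send their axons to the lamina, the first relay of the fly visual system.

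The siTop3β libraries came from flies carrying Rh1-Gal4, which drives transgenes in R1 to R6, with an RNAi construct against Top3β, and the siControl libraries from flies with the same driver and an RNAi construct against mCherry, a red fluorescent protein with no counterpart in the fly. Both groups also carried UAS-Dcr2, which aids RNAi, and UAS-GFP-KASH, which places GFP on the nuclear envelope so that tagged nuclei can be captured with an antibody. Males aged to Day 30 in population cages were frozen at Zeitgeber time 6, and nuclei were pooled from many flies, so a library is not 1 animal. The source is labelled as retina, and the methods describe capture from head homogenate. Each group had 2 libraries. The methods speak of biological replicates, each a pool of males, for sequencing experiments in general, but the labels give no cohort for these libraries, so p-values measure only the spread between them.

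The libraries held 3239201 and 3965125 counts in siTop3β and 4267208 and 3615880 in siControl. At this depth 3 counts corresponded to 0.697 to 0.871 CPM, the counts scaled to library size by the TMM method. In the library labelled siTop3β replicate 1, which was the shallowest, 12922 genes had at least 1 count, against 10104 to 10537 in the other libraries. The RNAi target was not lower in the libraries labelled siTop3β: Top3beta had 57 and 71 counts there, against 70 and 57 in siControl, a log2 fold change of 0.13 (edgeR quasi-likelihood test, adjusted p = 0.957). The direction of every change therefore rests on the labels. The study examined the RNAi line by quantitative PCR in other flies, which were not analysed here.

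All 32 genes had a count in every library, 28 had more than 3 counts in every library and 19 had at least 10. The 4 genes dpr7, dpr21, dpr11 and dpr8 stood well above the rest per exonic kilobase in siControl. The highest was dpr7, with 111 and 99.2 CPM per exonic kb. It was followed by dpr21 with 59.6 and 75.8 and by dpr11 with 54.9 and 67.4, and these genes overlapped each other. dpr8 stood at 14.8 and 16.0, below those 3 genes in both siControl libraries and above every other member. dpr19 had 7.61 and 6.40 CPM per exonic kb, followed by dpr12 with 4.74 and 3.47 and dpr9 with 4.38 and 3.44, which overlapped each other.

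From dpr14 downwards the levels per exonic kb in siControl ran from 2.65 to 0.161, and the libraries of each gene overlapped those of the next in the order, with 1 exception between dpr15 and dpr10. No DIP gene exceeded 1.89 CPM per exonic kb in a siControl library. The DIP genes are thus all in the lower portion of the order, together with most Dpr genes. Read per kilobase of the whole gene rather than of exons, dpr21 ranked 8, because its exons cover only 0.798% of its span. Summed over the 32 genes, the level was 671 and 669 CPM in siTop3β and 721 and 767 CPM in siControl. Without dpr21 the sums were 657 and 662 CPM in siTop3β and 662 and 691 CPM in siControl.

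**Figure D1:**
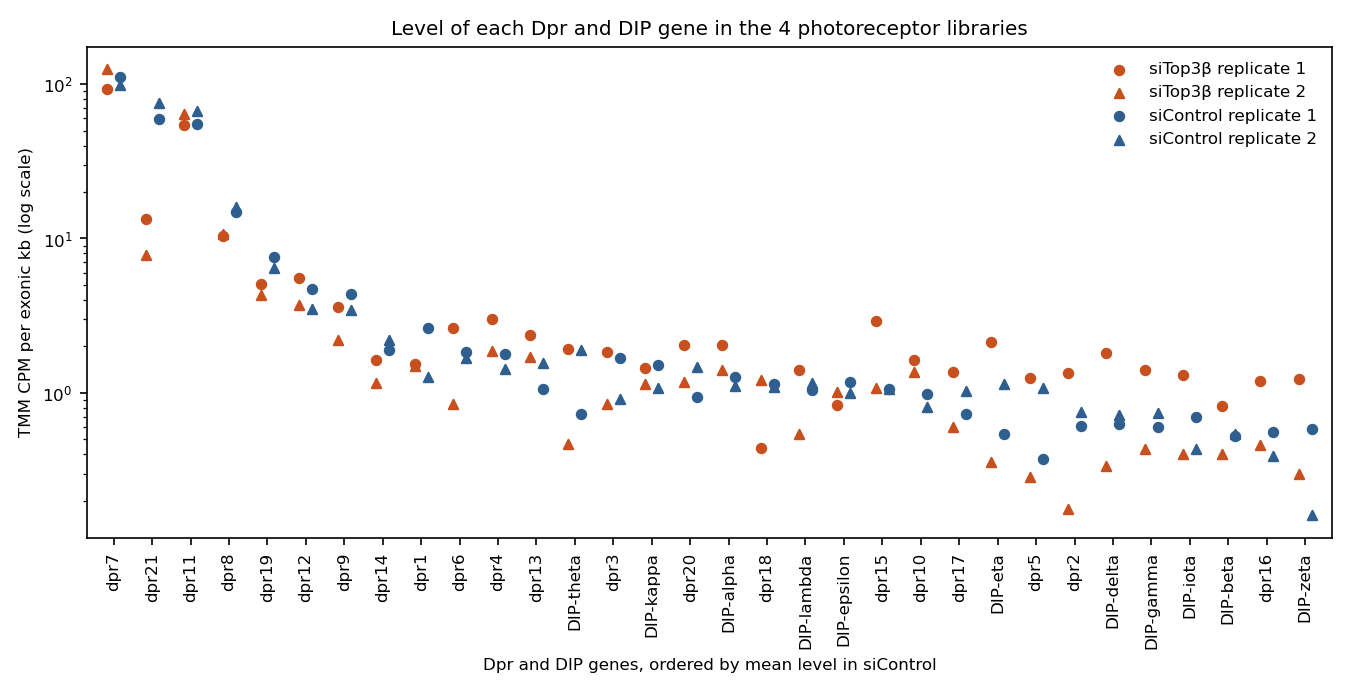
Level of each Dpr and DIP gene in the 4 libraries, in TMM-scaled CPM per exonic kilobase on a log axis, with 1 point per library and genes ordered by their siControl mean. The siTop3β points of dpr21, at 13.4 and 7.80, lie far below its siControl points at 59.6 and 75.8, while the points of dpr7 and dpr11 overlap between groups.

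dpr21 (FBgn0260995) lies on chromosome 2R from 3066499 to 3191011 on the forward strand of dm6. It encodes a Dpr protein, and the annotation gives it 1 transcript with 7 exons over 124.5 kb, of which 0.993 kb is exonic and the longest stretch without an exon is 60.3 kb. It had 46 and 29 counts in siTop3β, against 255 and 263 in siControl. In CPM these were 13.35 and 7.74 in siTop3β and 59.2 and 75.3 in siControl. Both siTop3β libraries were thus below both siControl libraries, with a wide gap between the groups. The mean was 10.5 ± 3.96 CPM in siTop3β and 67.2 ± 11.3 CPM in siControl (SD, n = 2 each).

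The fitted log2 fold change of dpr21 was -2.68 (standard error 0.23, 95% interval -3.16 to -2.19), which places siTop3β at 15.7% of siControl (11.2% to 21.9%). Its log2 fold change minus the median of its 25 tested paralogs was -2.69. Among all 7029 genes tested, 1 had a lower fold change. Each siTop3β library alone gave a negative value, with a log2 fold change of -3.11 without siTop3β replicate 1 and -2.37 without siTop3β replicate 2. Because these are libraries of many nuclei, fewer nuclei with dpr21 transcripts and fewer transcripts per nucleus cannot be told apart.

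No gene of the table overlaps dpr21, so reads of another listed gene do not share its interval. The region around it is sparse, with 4 protein-coding genes within 500 kb. CG41378, 219.8 kb before dpr21, was the only neighbour abundant enough to be tested. It had 291 and 362 counts in siTop3β, against 461 and 406 in siControl, a log2 fold change of -0.30 (edgeR, adjusted p = 0.536). Its libraries did not overlap between groups, but the change did not pass the test. Scp1, 98.4 kb before dpr21, had 7 and 6 counts in siTop3β and 8 and 4 in siControl, and CG41242 and RYa after it had at most 2 counts in any library.

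DIP-beta was next set side by side with Dpr8, Dpr9 and Dpr21, which are described among its binding partners. This grouping comes from general knowledge of the family and was made with the values known. dpr8 (FBgn0052600) spans 140.1 kb of chromosome X, between 14322226 and 14462351. It had 176 and 199 counts in siTop3β, against 316 and 277 in siControl. Both siTop3β libraries were below both siControl libraries. Its mean was 52.1 ± 1.45 CPM in siTop3β and 76.3 ± 4.16 CPM in siControl (SD, n = 2 each), and its log2 fold change was -0.55 (95% interval -0.88 to -0.22). The unadjusted p of 0.00184 became an adjusted p of 0.0982 across all genes by edgeR's quasi-likelihood test, so dpr8 did not pass. Over the alternative settings its adjusted p ran from 0.0154 to 0.645.

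The other Dpr gene of that group, dpr9 (FBgn0038282, 3R from 15054930 to 15077206), had 60 and 40 counts in siTop3β, against 91 and 58 in siControl. The groups overlapped, and the log2 fold change of -0.44 had an interval from -0.998 to 0.12. DIP-beta itself, a DIP known from lamina neurons, was near the detection limit in these nuclei. It had 15 and 8 counts in siTop3β, against 12 and 10 in siControl, and its interval from -1.13 to 1.51 on the log2 scale is too wide to show a difference at this depth. The point estimates of the 3 Dpr genes were thus all negative, of very unequal size, and that of DIP-beta was 0.19. Nothing is read from the shared sign, because the group holds dpr21 and was made with the values known.

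**Figure D2:**
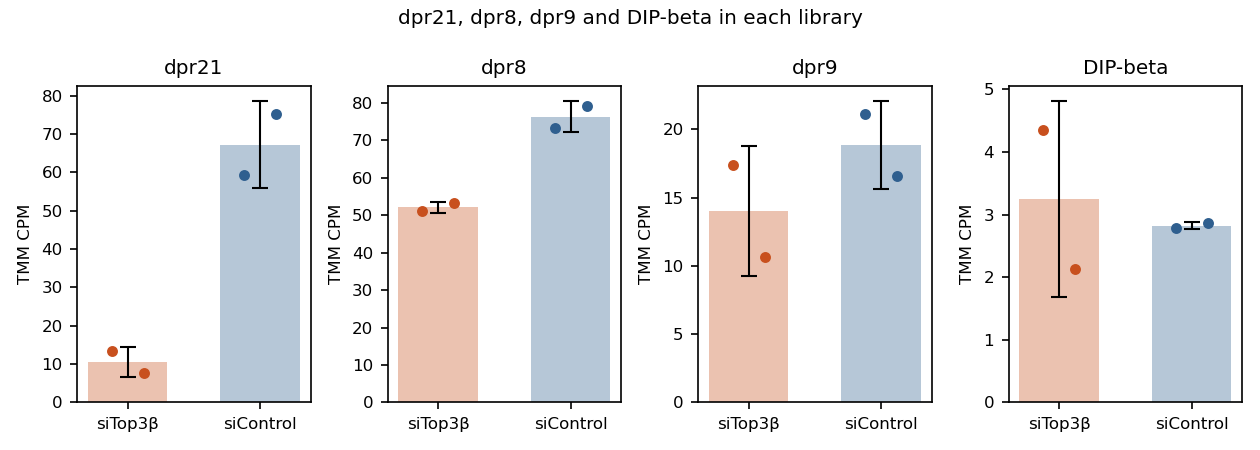
TMM-scaled CPM of dpr21, dpr8, dpr9 and DIP-beta in siTop3β and siControl, with bars for group means, error bars for the SD (n = 2 each) and points for libraries, each panel with its own axis from 0. dpr21 averaged 10.5 CPM in siTop3β and 67.2 in siControl, dpr8 averaged 52.1 in siTop3β and 76.3 in siControl, and the points of dpr9 and DIP-beta overlap between groups.

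Dpr11, Dpr15, Dpr16 and Dpr17 bind DIP-gamma, a pairing known from the R7 photoreceptors that express Dpr11 and their targets in the medulla. dpr11 (FBgn0053202) had the most counts of the family, 870 and 1124 in siTop3β, against 1100 and 1095 in siControl. Its groups overlapped in CPM, at 252 and 300 in siTop3β and 255 and 313 in siControl. The log2 fold change was -0.04, and its interval of -0.33 to 0.25 limits any change to well under that of dpr21. dpr15 had 35 and 14 counts in siTop3β, against 16 and 13 in siControl. Its log2 fold change of 0.89 (95% interval -0.14 to 1.91), the highest estimate of the family, came largely from siTop3β replicate 1 and was 0.01 without that library. dpr17, which lies near dpr15 on 3R, had 21 and 10 counts in siTop3β, against 14 and 16 in siControl.

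DIP-alpha binds Dpr6 and Dpr10, which neighbour each other on 3L, and these pairs act in medulla neurons and in motor neuron targeting. DIP-alpha (FBgn0052791) was the most abundant DIP gene by CPM, with 63 and 47 counts in siTop3β and 49 and 35 in siControl. Its siTop3β libraries were both above its siControl libraries, and the log2 fold change of 0.52 (95% interval -0.07 to 1.11) did not pass the test (edgeR, adjusted p = 0.653). dpr10 had 20 and 18 counts in siTop3β, against 15 and 10 in siControl, also without overlap in CPM, and a log2 fold change of 0.73 (adjusted p = 0.764 in the same edgeR test). dpr6 gave no such separation. It had 57 and 20 counts in siTop3β, against 50 and 37 in siControl, so its siTop3β libraries lay on either side of both siControl libraries.

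Dpr12 pairs with DIP-delta, as known from the mushroom body, a learning centre of the fly brain. dpr12 had 90 and 65 counts in siTop3β, against 96 and 57 in siControl, with a log2 fold change of 0.16 (95% interval -0.36 to 0.68). DIP-delta had 30 and 6 counts in siTop3β, against 13 and 12 in siControl, and the siTop3β libraries again lay on both sides of siControl. Neither gene passed the test.

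The remaining Dpr genes differed widely in level. dpr7 (FBgn0053481), a short gene on chromosome 4 and the highest per exonic kb, had 487 and 708 counts in siTop3β, against 726 and 525 in siControl. Its groups overlapped, with a log2 fold change of 0.05 and an interval of -0.25 to 0.35. dpr19 had 47 and 43 counts in siTop3β, against 88 and 60 in siControl. Its groups did not overlap in CPM, at 13.6 and 11.5 in siTop3β and 20.4 and 17.2 in siControl. The log2 fold change was -0.59, with an unadjusted p of 0.034 and an adjusted p of 0.47 from edgeR. dpr14 was likewise lower in both siTop3β libraries, with 22 and 17 counts, against 32 and 30 in siControl, and a log2 fold change of -0.55 (adjusted p = 0.764 by edgeR). Both genes are short, 3.738 kb for dpr19 and 4.583 kb for dpr14.

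Other Dpr genes had fewer counts. dpr4 had 31 and 21 counts in siTop3β, against 23 and 15 in siControl, and dpr13 had 27 and 21 in siTop3β, against 15 and 18 in siControl. For both, each siTop3β library was above each siControl library in CPM, and neither log2 fold change, 0.58 and 0.64, passed the test. dpr1, the member that gave the family its name through its role in salt aversion, had 19 and 20 counts in siTop3β, against 41 and 16 in siControl. The siControl libraries of dpr1 were further apart than the group means. dpr3 had 20 and 10 counts in siTop3β, against 23 and 10 in siControl, and dpr20 had 19 and 12 in siTop3β, against 11 and 14 in siControl. dpr18 had 4 and 12 counts in siTop3β, against 13 and 10 in siControl. These 4 genes overlapped between groups, with log2 fold changes from -0.41 to 0.42.

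The tested DIP genes not yet described had low counts. By mean siControl CPM they ranged from the 4.85 percentile of all tested genes for DIP-eta to the 24.2 percentile for DIP-kappa. DIP-kappa had 20 and 17 counts in siTop3β, against 26 and 15 in siControl, with a log2 fold change of -0.01. DIP-theta and DIP-eta, close neighbours on 2L, were uneven between replicates. DIP-theta had 19 and 5 counts in siTop3β, against 9 and 19 in siControl, and DIP-eta had 22 and 4 in siTop3β, against 7 and 12 in siControl. DIP-epsilon had 9 and 12 counts in siTop3β, against 16 and 11 in siControl. DIP-lambda, the longest gene of the family at 379 kb, had 12 and 5 counts in siTop3β, against 11 and 10 in siControl. All 5 overlapped between groups, and their 95% intervals were wide, from the lower bound of -1.63 for DIP-lambda to the upper bound of 2.08 for DIP-eta on the log2 scale.

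The remaining 6 genes, dpr2, dpr5, dpr16, DIP-gamma, DIP-zeta and DIP-iota, did not pass edgeR's expression filter. Their counts ranged from 2 to 15 per library and summed to 70 and 20 in siTop3β, against 39 and 31 in siControl. The sums of the siTop3β libraries thus lay on either side of both siControl sums, and no fold change is given for these genes. dpr16 also shares 118 bases of exon with cno on the opposite strand, and whether strand was used in counting is not stated, so its few counts are uncertain.

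Of the 26 genes tested, the number past an adjusted p threshold of 0.05 was 1, namely dpr21, the gene for which the family was chosen. Over all 7029 genes tested 85, or 1.21%, passed, and 58, or 0.825%, were lower in siTop3β. Nothing is read from the count of 1, which the choice of the family fixed. At an unadjusted p under 0.05 there were 3 members, dpr21, dpr8 and dpr19, all lower. Of all 7029 genes tested, 382 were lower and 257 higher at that level, together 9.09%. By edgeR, 2 of the 25 paralogs had an unadjusted p under 0.05, and 0 passed after adjustment. DESeq2's Wald test gave an adjusted p for only 9 members, dpr21 among them, and none of the paralogs among these passed.

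The siTop3β libraries were below both siControl libraries for 4 of the 26 genes (dpr21, dpr8, dpr19 and dpr14), beside 19.0% of all genes tested. They were above both for 5 (dpr4, dpr10, dpr13, dpr15 and DIP-alpha), beside 19.6% of all genes. These shares were close to the background. The log2 fold changes were negative for 13 genes and positive for 13, with a median of 0.003, and the median over all genes tested was 0.02. Without dpr21 the median was 0.02 and the values ran from -0.59 to 0.89. The family's median depended on single siTop3β libraries and was -0.41 without siTop3β replicate 1 and 0.54 without siTop3β replicate 2. The filter kept 26 members in the first of these fits and 30 in the second, so the medians are not over the same genes.

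**Figure D3:**
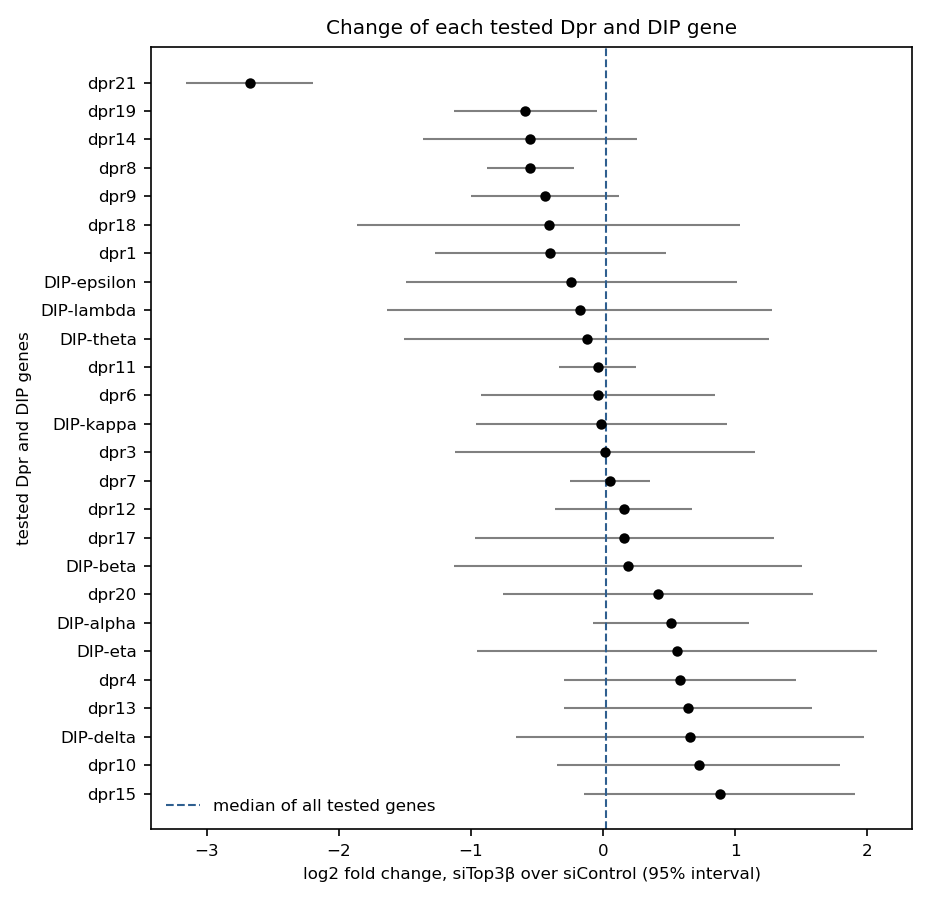
Log2 fold change, siTop3β over siControl, of the 26 tested Dpr and DIP genes (points) with 95% intervals from edgeR (lines), and the median of all tested genes as a dashed line at 0.02. dpr21 lies at -2.68, and the other genes lie between -0.59 and 0.89, most with intervals that include 0.

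The study examined gene length, and dpr21 is among the longer members. Of the tested members, 4 span at least 100 kb, namely DIP-lambda, dpr6, dpr8 and dpr21, and their log2 fold changes were -0.18, -0.04, -0.55 and -2.68. Over all genes, 76 of those tested span at least 100 kb, of which 57 had a negative log2 fold change, beside 3271 of all 7029, and their median was -0.21, beside 0.02. As lower passed 8 of the 76, dpr21 included, beside 0.825% of all genes, and 0 passed as higher, beside 27 of all genes. dpr21 had the lowest value of those 76. Across the 26 members the rank correlation of span with log2 fold change was -0.14, and -0.05 without dpr21. It is a description across genes that share the same 4 libraries, and genes are not independent replicates. The intervals of dpr6, -0.92 to 0.85, and DIP-lambda, -1.63 to 1.28, are too wide to place either gene near 0. The estimate of dpr6 was -1.05 without siTop3β replicate 1 and 0.53 without siTop3β replicate 2. Both intervals lay above that of dpr21, -3.16 to -2.19. This is no test, because dpr21 was chosen for its change in this contrast.

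**Figure D4:**
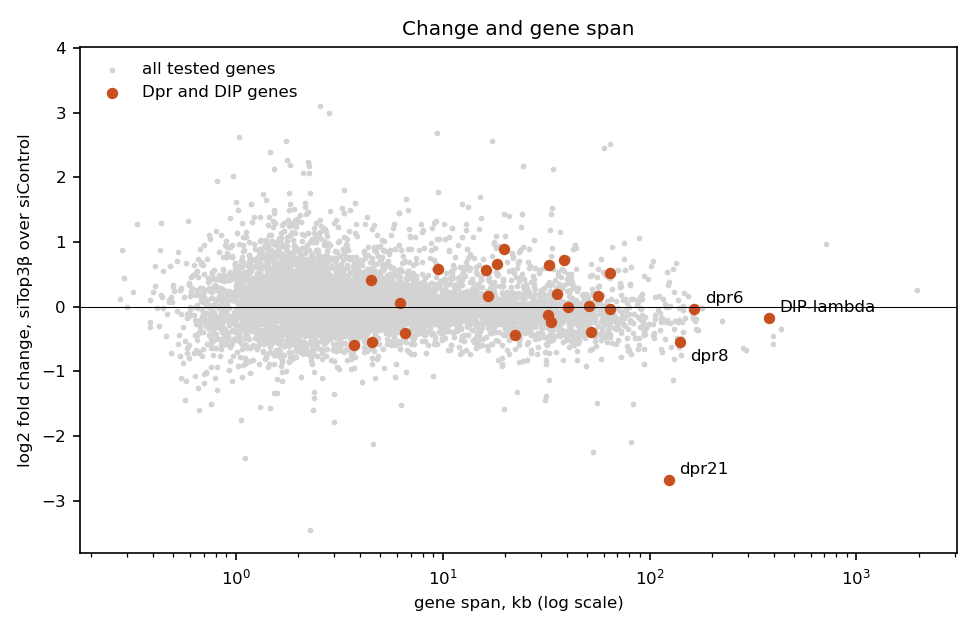
Log2 fold change, siTop3β over siControl, against gene span in kilobases on a log axis, for the tested genes with an annotated span (grey) and the 26 tested Dpr and DIP genes (orange), with members of at least 100 kb named. dpr21 at -2.68 is the lowest of the 76 genes of at least 100 kb. The estimates of dpr6, -0.04, and DIP-lambda, -0.18, have wide intervals of -0.92 to 0.85 and -1.63 to 1.28.

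Some members contain other genes in their introns, whose reads could be split between the genes. Within dpr8 lie betaNACtes4 and betaNACtes3 on the same strand. betaNACtes4 had 6 and 4 counts in siTop3β, against 26 and 12 in siControl, a log2 fold change of -1.75 (edgeR, adjusted p = 0.325), so it did not pass the test. Within dpr11 lies CG1137, with 162 and 226 counts in siTop3β and 241 and 246 in siControl. Within DIP-alpha lies CG13021 on the opposite strand, with 21 and 17 counts in siTop3β, against 9 and 10 in siControl. DIP-alpha also shares 158 bases of exon with CG2875 on the same strand and 106 with ppk8 on the opposite strand. Whether intronic reads were counted for any gene is not stated.

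The siTop3β libraries differed from each other across the family. siTop3β replicate 1 was above siTop3β replicate 2 in CPM for 27 of the 32 genes, and siControl replicate 1 was above siControl replicate 2 for 16 of 32. Of the 19 members that reached 10 counts in each library it was 16, with a median log2 ratio of 0.54 between the siTop3β replicates. Over all tested genes that reached that minimum the share was 47.2%, with a median log2 ratio of -0.02. Genes with low counts showed this tilt over all tested genes as well. Of the 13 members with under 10 counts in a library 11 were higher in siTop3β replicate 1, with a median log2 ratio of 1.71. Over the 1009 tested genes with such counts the share was 72.2% and the median 0.63. The 13 members include the 6 that failed the expression filter, all of them higher in siTop3β replicate 1. The 1009 genes all passed it, so the shares are not like for like. The members not higher, DIP-epsilon and dpr18, were both tested. The siTop3β replicates of dpr21 differed in the same direction as most members, and both remained far below siControl. Whether this imbalance has a part in the values of low members was not tested.

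**Figure D5:**
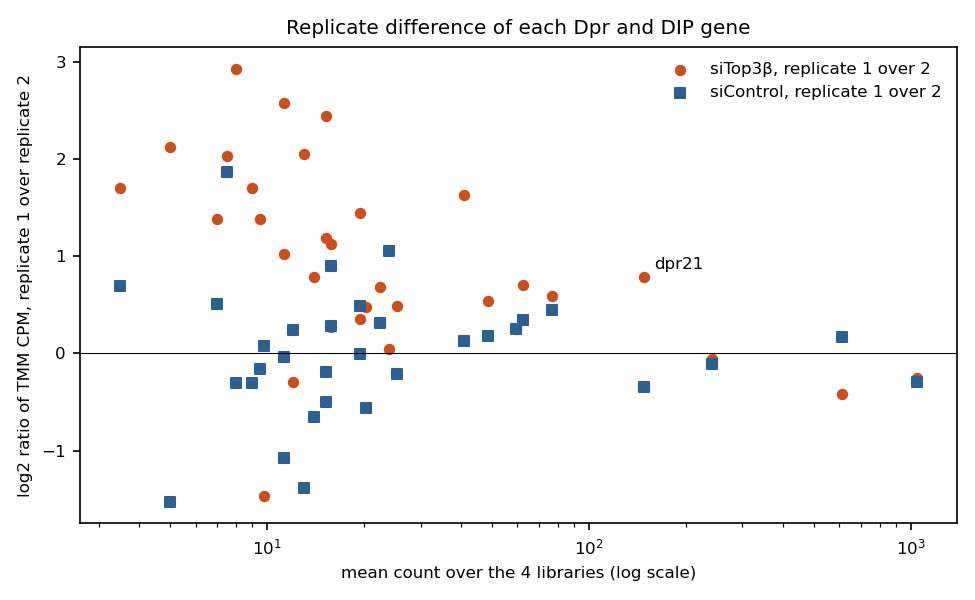
Log2 ratio of replicate 1 over replicate 2 within siTop3β (orange circles) and within siControl (blue squares) for the 32 Dpr and DIP genes, against the mean count over the 4 libraries on a log axis. Of the siTop3β points, 27 of 32 lie above 0, against 16 of 32 in siControl.

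Beat and Side proteins form another pair of immunoglobulin families that bind each other and guide axons. Of the 22 beat and side genes, 17 were tested, and 0 passed an adjusted p of 0.05 by edgeR, beside 1.21% of all genes. At an unadjusted p under 0.05 there was 1, beside 9.09% of all genes. By DESeq2 0 passed as well, but a gene for which it gave no adjusted p could not pass. A further 5 genes were taken by name: the Dpr and DIP relatives klg, wrapper, Lac and Ama, and cDIP, which encodes a secreted protein that binds many Dpr and DIP proteins. Of these 3 were tested and 0 passed. Lac, which encodes Lachesin, was near the threshold, with 122 and 115 counts in siTop3β, against 233 and 184 in siControl. Both siTop3β libraries were lower, and the log2 fold change was -0.69 (95% interval -1.07 to -0.32, adjusted p = 0.0537 by edgeR). It passed under 4 of the alternative settings.

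Photoreceptor markers were high in every library. The 8 genes listed for R1 to R6, among them ninaE and trp, summed to 49475.5 and 54462.3 CPM in siTop3β and 54386 and 55341.5 CPM in siControl. Of these 8, 0 passed the test. The list was not restricted to genes found only in R1 to R6, so its sum is read as a photoreceptor level. Markers of other cell types were also present, and none was at 0 in all libraries. The 6 markers of pigment and cone cells summed to 8647.6 and 11740.1 CPM in siTop3β, against 7445.8 and 8686.7 CPM in siControl, or 126% of siControl, and 0 of 6 passed. Most of that sum was w, with 8574.2 and 11660.8 CPM in siTop3β and 7362.2 and 8588.9 CPM in siControl, a pigment gene that is also the usual marker of fly transgenes. The other lists were far lower. The 10 markers of other neurons summed to 209.8 and 165.0 CPM in siTop3β, against 249.6 and 231.5 CPM in siControl, or 77.9% of siControl. Of the 8 tested 1, ey, passed as lower. It had the largest difference in mean CPM of the list, 36.3 in siTop3β and 65.1 in siControl, so the sum leans on it, though not on it alone. For VAChT, ChAT, Gad1 and Vmat both siTop3β libraries were also below both siControl libraries. Their log2 fold changes were -0.19, -0.72, -0.61 and -0.38, and none of them passed. VGlut and ap overlapped between groups, and VGAT went the other way. Whether ey came from other neurons here was not tested. The 6 glial markers summed to 93.7 and 78.8 CPM in siTop3β and 86.8 and 100.2 CPM in siControl, with 0 of 5 tested passing. The 6 markers of R7 and R8 summed to 95.5 and 98.3 CPM in siTop3β and 101.0 and 107.0 CPM in siControl. Muscle markers stood at 31.6 and 49.4 CPM in siTop3β and 23.9 and 52.1 CPM in siControl, and those of haemocytes and fat body at 46.1 and 23.8 CPM in siTop3β and 24.6 and 33.8 CPM in siControl. No marker of these 3 lists passed the test. Other neurons of the optic lobe express many Dpr and DIP genes, and the part of RNA from any of these cells in the values of the family was not tested.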

How the data were processed

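Reads were trimmed (Trimmomatic) and mapped to dm6 (STAR) by the authors, whose deposited table holds raw, unnormalized counts of 13929 genes in 4 libraries of 3239201 to 4267208 counts. The counting tool, its annotation, and its use of introns, strand and reads with several alignments are not given in the sources used here. The study's methods describe more replicates for such experiments in general, and 2 libraries per group were analysed here.

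Libraries were grouped by their treatment labels. The deposited counts were tested with edgeR 4.0.16 in R 4.3.3, using TMM normalization, the filterByExpr filter (7029 genes kept), the robust quasi-likelihood test and Benjamini-Hochberg adjustment over all 7029 genes, with a threshold of 0.05. Standard errors and 95% intervals were derived from the test statistic. Counting floors of 3 counts cover counting error only. DESeq2 1.42.0, which the authors used for this contrast, and apeglm 1.24.0 gave alternative fits. The fit was tested on simulated data. Positions, spans and exonic lengths came from the Ensembl release 115 annotation in dm6 coordinates, which covered 13866 genes. CPM per kilobase used the union of exons.

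The members, the marker and recognition gene lists and the binding groups were chosen with earlier results of these data known. Every tested member is named with its counts. The rule also named the 3 members closest to dpr21 in protein identity. Protein sequences were not used here, and dpr21 was instead set beside dpr8, dpr9 and DIP-beta. Normalization, filter, test, length measure, replicate block and single libraries were varied.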

Additional observations from a re-analysis of the deposited data

How the results depend on the processing

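dpr21, for which the family was chosen in these same libraries, had a log2 fold change of -3.11 to -2.37 when 1 library was left out and -2.74 to -2.62 otherwise. dpr21 minus the median of its paralogs was -2.98 to -2.70 with 1 library left out, the lowest without siControl replicate 1. Those fits kept 26 to 30 members, so the paralogs differ between them. dpr21 ranked 8 by level over the whole gene span, against 2 over exons. With the replicate number as a block 1 member was called and dpr21 stood at -2.68. The labels do not pair the libraries, and same-numbered libraries had a correlation of -0.12 in their deviations. With the numbers crossed, a pairing added after seeing the data, 2 members were called, dpr21 and dpr8, and 211 genes in all, against 60 with the uncrossed block and 85 without a block. Over all genes DESeq2 called 51 and a minimum of 10 counts in every library 138. DESeq2 gave an adjusted p for 9 members. With 1 library left out, the lone library of its group was assumed to vary like the others.

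The family's median was -0.41 to 0.54 with 1 library left out, over 26 to 30 members. Top3beta was -0.017 to 0.22 in those fits, negative without siTop3β replicate 2. Of the other recognition genes 1, Lac, was called with DESeq2 size factors, with a minimum of 10 counts, with the crossed block and without siTop3β replicate 1 (0 to 1 with 1 library left out). Estimates near 0 changed sign, none of them called. With upper quartile scaling dpr11 was 0.0069, dpr6 0.022 and DIP-kappa 0.043, and with total counts dpr6 was 0.017 and DIP-kappa 0.018. With the replicate block DIP-kappa was 0.0070. dpr3 was -0.036 without a filter, -0.038 with DESeq2 and -0.0035 with the crossed block. The cause was not tested. With 1 library left out, the ranges that crossed 0 were as follows. They were -0.21 to 0.10 for dpr11, -1.05 to 0.53 for dpr6 and -0.24 to 0.24 for DIP-kappa. They were -0.64 to 0.52 for dpr3, -0.53 to 0.61 for dpr17 and -0.83 to 0.22 for dpr1. They were -0.16 to 0.39 for dpr12, -1.44 to 0.67 for DIP-theta and -0.22 to 0.25 for dpr7. They were -0.015 to 0.74 for dpr20, -0.99 to 1.39 for DIP-delta and -1.36 to 0.12 for dpr18. They were -0.40 to 0.58 for DIP-beta, -1.19 to 1.32 for DIP-eta and -0.997 to 0.32 for DIP-lambda.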
